A study of Drosophila melanogaster with 24 samples.

Results

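This account follows 10 genes of mitochondrial dynamics and mitophagy in the brains of *tau*-KO *Drosophila* after traumatic brain injury (TBI). They are *Marf*, *Opa1*, *Drp1*, *Miro*, *milt*, *Pink1*, *park*, *vimar*, *Usp30* and *prel*, taken by name from a count table of 16995 genes, and all 10 were listed there. Every fly carried the *tau* deletion, controls included, and the labels separate the groups by sex and injury alone. Males and females were left uninjured as control or were examined 1, 2 or 4 h after a single full body strike with a spring-driven impact device, and the flies were mated adults of 10 to 14 days. Each library holds RNA of 1 brain, and 3 libraries in each of the 8 groups give 24. The impact reaches the whole fly and not the head alone, and no brain with intact *tau* was sequenced alongside these in the counts used here. The comparison asks whether transcripts of these genes differ between injured and uninjured brains of each sex, and between the sexes.

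Mitochondria form a network that fuses and divides. Mitofusin joins the outer membranes and OPA1 the inner membranes, while the dynamin Drp1 is drawn to the surface and constricts the organelle until it splits. In neurons, mitochondria travel along microtubules on kinesin motors, held by the outer membrane GTPase Miro and its adaptor Milton. Damaged mitochondria are removed by mitophagy: the kinase PINK1 gathers on them and activates the ubiquitin ligase Parkin, which marks outer membrane proteins, mitofusin and Miro among them, and deubiquitinases such as USP30 (known best from mammalian cells) remove those marks. The PINK1 and Parkin pathway was placed in order by fly genetics, where its loss damages flight muscle and dopaminergic neurons.

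Among these genes, *Usp30* and *vimar* were the ones with the most distinct values. *Usp30* averaged 15.1 ± 4.26 CPM (gene counts scaled to a common library size with TMM factors) in male brains at 2 h, against 61.2 ± 26.3 CPM in male controls (SD, n = 3 each). *vimar* had 0 counts in the 3 female brains at 2 h, against 23 counts in the 3 female controls. *Opa1* had a positive log2 fold change (log2 FC) in each of the 6 comparisons of injured with control brains but was not called in any, and its sign turned under some alternatives in males at 4 h and in females at 2 h. No member was called higher after injury in either sex.

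A gene was tested when 3 or more libraries held 5 or more counts of it. That left 7865 genes, 9 of the 10 members among them, in a single fit of edgeR's quasi-likelihood F-test over the 24 libraries. The exception was *park*. A gene is called when its |log2 FC| exceeds 1 and its unadjusted p is below 0.05. In males, 0 of the 9 members were called at 1 h, where 4.64% of all tested genes were. Male brains at 2 h had 2 called members, *Usp30* and *Pink1*, against 7.26% of all genes, and at 4 h 1 member was called, *Usp30*, against 3.92%. For the mean of the 3 times against control, males had 2 called members, *Usp30* and *prel*, against 6.56% of all genes. Females had 0 called members at 1 h, 1 at 2 h (*vimar*) and 0 at 4 h, against 1.44%, 2.16% and 1.42% of all genes. For the mean of the 3 times, *vimar* was again called in females, against 2.28% of all genes. Every call was lower in injured brains. With 9 genes these counts are too small to set the group apart from the background, and nothing particular to it is read from them.

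No member reached an adjusted p under 0.05, nor did any other gene in the quasi-likelihood test, although 117 to 608 genes had an unadjusted p under 0.05 in each of the 6 comparisons of injury with control. By other tools, 0 to 4 genes passed in those comparisons with DESeq2, 0 to 2 with edgeR's likelihood ratio test, 0 to 1 with edgeR's exact test and 0 with limma voom. Without the filter on low counts 5 to 32 passed. No member was among any of these. The median log2 FC of the 9 members was −0.44, −0.56 and −0.51 in males at 1, 2 and 4 h, beside 0.02, −0.02 and −0.05 over all tested genes. In females it was −0.36, −0.32 and −0.07, beside −0.06, −0.02 and 0.02. In males 8, 7 and 7 of the 9 members had a negative log2 FC at 1, 2 and 4 h, and in females 5, 5 and 6. Over all tested genes the log2 FC was positive for 50.9%, 48.8% and 47.1% in males and for 46.1%, 48% and 51.7% in females. Without male control 2 the sign in males turned positive for *Drp1* at each time, *Pink1* at 1 h, *prel* at 2 h and *Miro* at 4 h. The 3 comparisons of a sex share their control libraries, so those signs are not independent of each other.

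**Figure D1:**
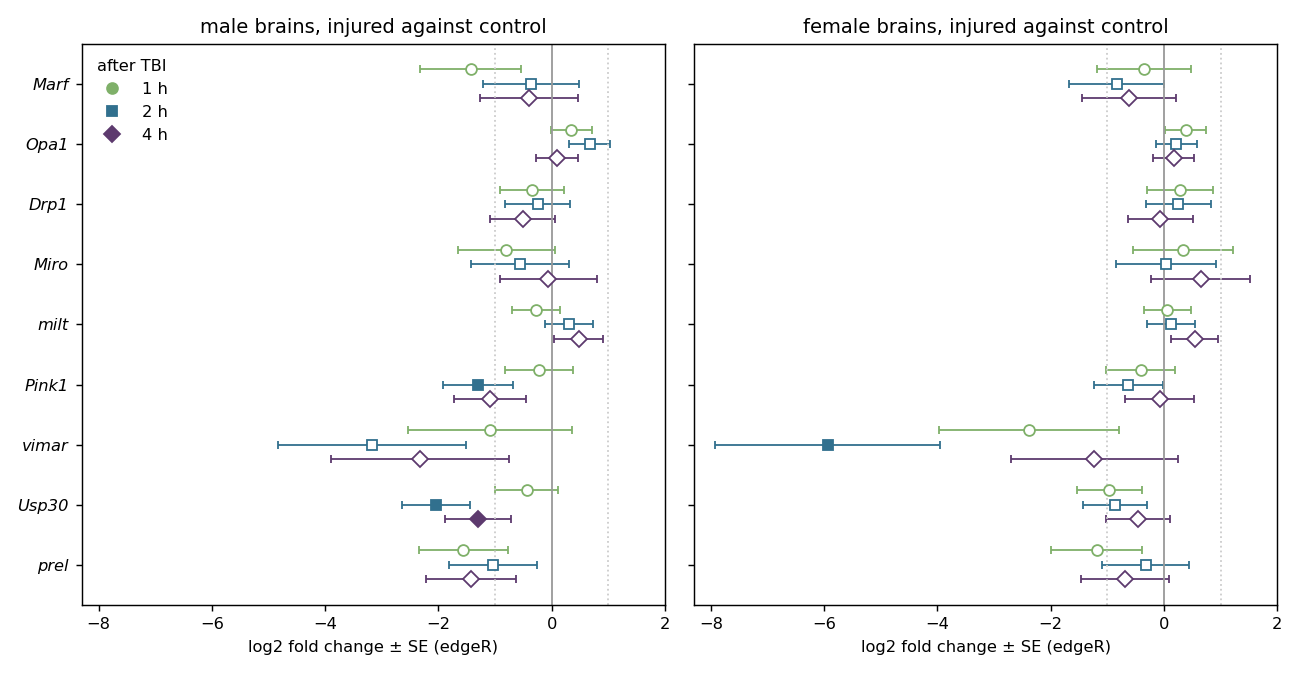
Log2 FC with its SE (horizontal axis) of the 9 tested genes (rows) at 1, 2 and 4 h after TBI against control of the same sex, males left and females right. Filled symbols are called genes and dotted lines mark |log2 FC| of 1; *Usp30* at 2 and 4 h and *Pink1* at 2 h are filled in males and *vimar* at 2 h in females, where the fitted −5.94 rests on 0 counts and is no measured fold.

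Depth and makeup of the libraries bear on these values. The shallowest library, male control 1, held 117416 gene counts and the deepest, male 1 h 2, held 1880528, so 1 count is worth 7.04 CPM in the shallowest library and 0.546 CPM in the deepest. Male control 2 and male 1 h 2 stood apart: their profiles correlated with the mean of the other libraries at 0.722 and 0.697, against 0.876 or more for the other 22 (across 4006 genes, which are not independent replicates). The 11 neuron markers were counted in every library, but their summed level was lowest in these libraries, at 1384 and 1365 CPM, against 2282 to 3987 CPM elsewhere. The 10 muscle markers summed to 388 and 455 CPM there, against 3126 to 4298 CPM elsewhere, and the 9 glia markers were highest there, at 2750 and 2259 CPM, against 1491 to 2121 CPM. The 9 photoreceptor markers reached 17150 CPM in male 1 h 2 and 2569 to 9705 CPM elsewhere. In female control 2 the 8 antenna markers reached 7554 CPM, against 236 to 1302 CPM elsewhere, and the 7 fat body markers 22778 CPM, against 1574 to 14237 CPM. The part of these differences in the results below was not tested. Calls are given with and without the libraries they rest on. The gene *tau* was counted in all 24 libraries, at 88.2 to 191 CPM in males and 53.2 to 191 CPM in females. Where its 3′ reads lie relative to the deleted exons was not examined, so these counts do not check the deletion. *Yp1*, a yolk protein gene, ranged from 26.7 to 1966 CPM in the 12 male libraries and from 1414 to 12979 CPM in the 12 female ones, which overlap. *roX1*, a dosage compensation RNA gene, did not separate the sexes either. It ranged from 318 to 1080 CPM (median 927) in males and from 484 to 1030 CPM (median 890) in females. The sex of a library is taken from its label, and neither gene bears that label out library by library. Comparisons between the sexes rest on the labels, and why *roX1* was alike in both was not tested.

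**Figure D2:**
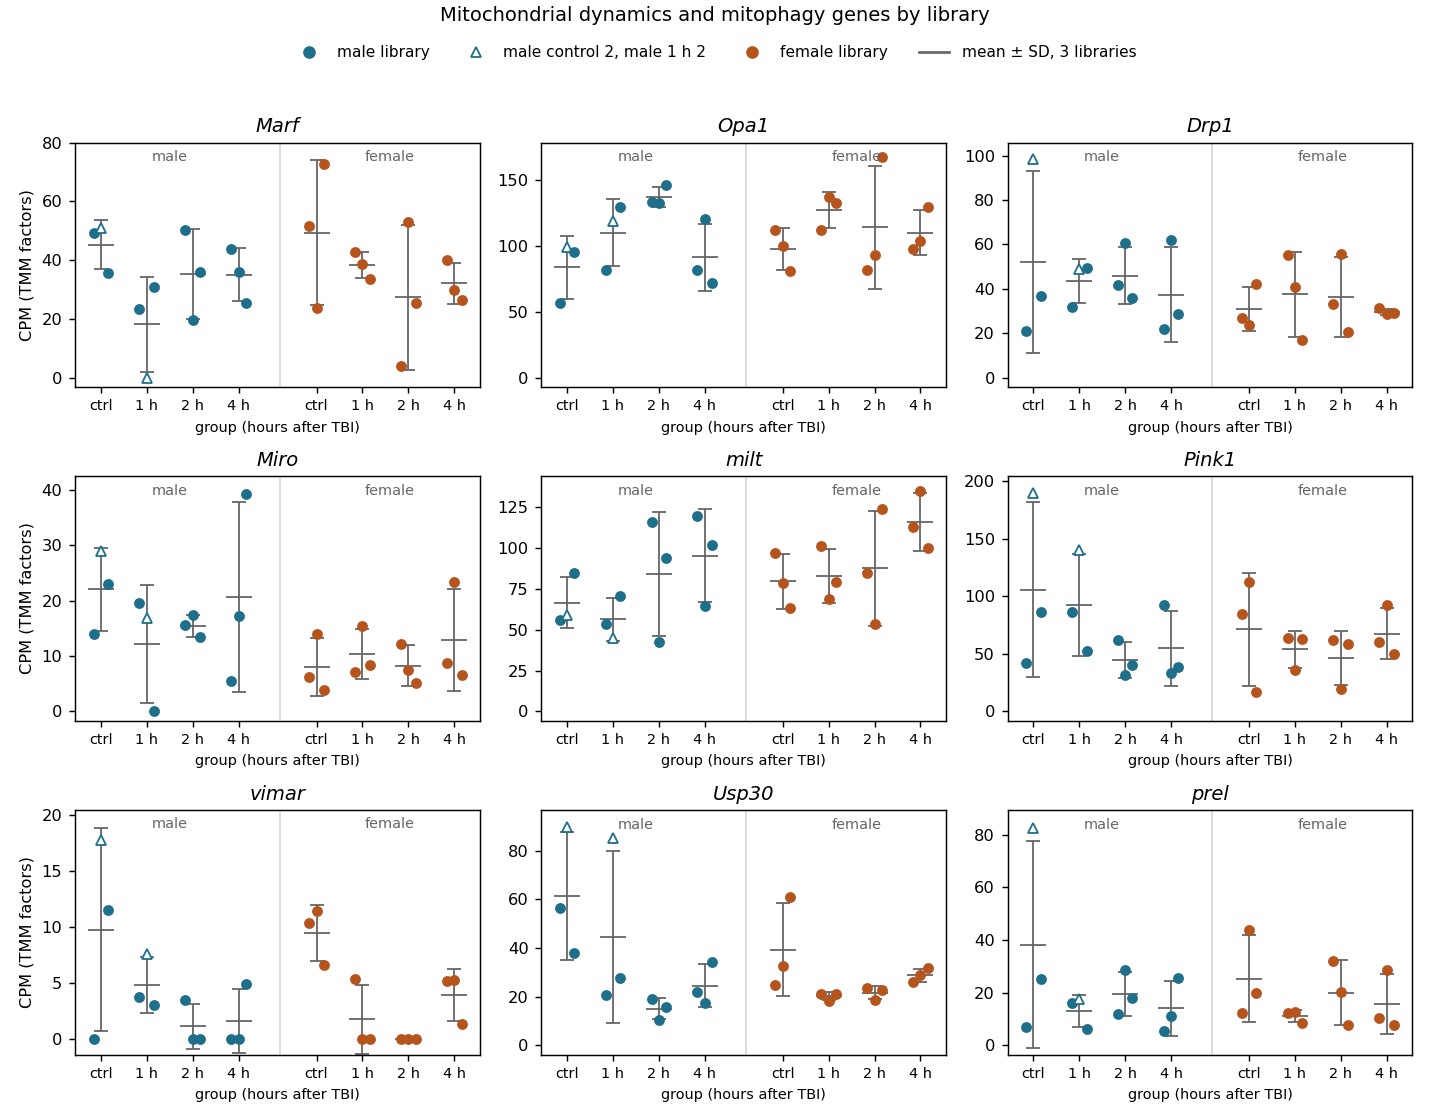
CPM of the 9 tested genes in each library (vertical axes) by sex and time (horizontal axes), with the mean ± SD of each group of 3; white triangles are male control 2 and male 1 h 2. *Usp30* lies between 10.6 and 19.0 CPM in the 3 males at 2 h, below the 3 male controls, and *vimar* lies at 0 in the 3 females at 2 h.

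*Usp30*, on the X chromosome, encodes a deubiquitinase of the outer membrane that in mammalian cells opposes Parkin. Its level in males was 56.3, 89.6 and 37.8 CPM in controls, 20.6, 85.1 and 27.7 CPM at 1 h, 19.0, 10.6 and 15.7 CPM at 2 h, and 21.8, 17.3 and 34.4 CPM at 4 h. All males at 2 h and at 4 h lay below the lowest male control, while at 1 h male 1 h 2 lay among the controls and the other 2 lay below them. The log2 FC in males at 2 h was −2.04 ± 0.60 (SE, n = 3 each), called by edgeR's quasi-likelihood test with a Benjamini-Hochberg adjusted p of 0.639. This call was made under each of the alternatives run, with log2 FC of −1.40 to −2.25, and with each library left out in turn, at −1.61 to −2.32. It was −1.60 without male control 2 and male 1 h 2 together.

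At 4 h the log2 FC of *Usp30* in males was −1.31 ± 0.58 (adjusted p = 0.962 by edgeR's quasi-likelihood test). Leaving out male control 1 (log2 FC −1.26), male control 2 (−0.87), male 4 h 1 (−1.25) or male 4 h 2 (−1.01) ended this call. For the mean of 1, 2 and 4 h in males it was −1.26 ± 0.44 (adjusted p = 0.649 by the same test), and −0.83 without male control 2, where it was no longer called. At 1 h alone the log2 FC was −0.44 and was not called, but without male 1 h 2 it was −1.38 and called.

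*Usp30* in females was 24.8, 32.5 and 60.8 CPM in controls, 21.3, 18.4 and 21.0 CPM at 1 h, 23.6, 18.6 and 22.8 CPM at 2 h, and 26.05, 28.7 and 31.6 CPM at 4 h. All 6 female brains at 1 and 2 h lay below the lowest control, though the nearest only narrowly, while those at 4 h lay within the control range. The log2 FC was −0.97, −0.87 and −0.45 at 1, 2 and 4 h, and none was called. The injured female libraries were close to each other, with SDs of 1.60 to 2.78 CPM against 19.0 CPM in their controls. The male change at 2 h was lower than the female change by 1.18 ± 0.82 on the log2 scale, a difference that was not called either (unadjusted p = 0.162, adjusted p = 1.0 by edgeR's quasi-likelihood test), so a difference between the sexes in the *Usp30* response was not shown.

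**Figure D3:**
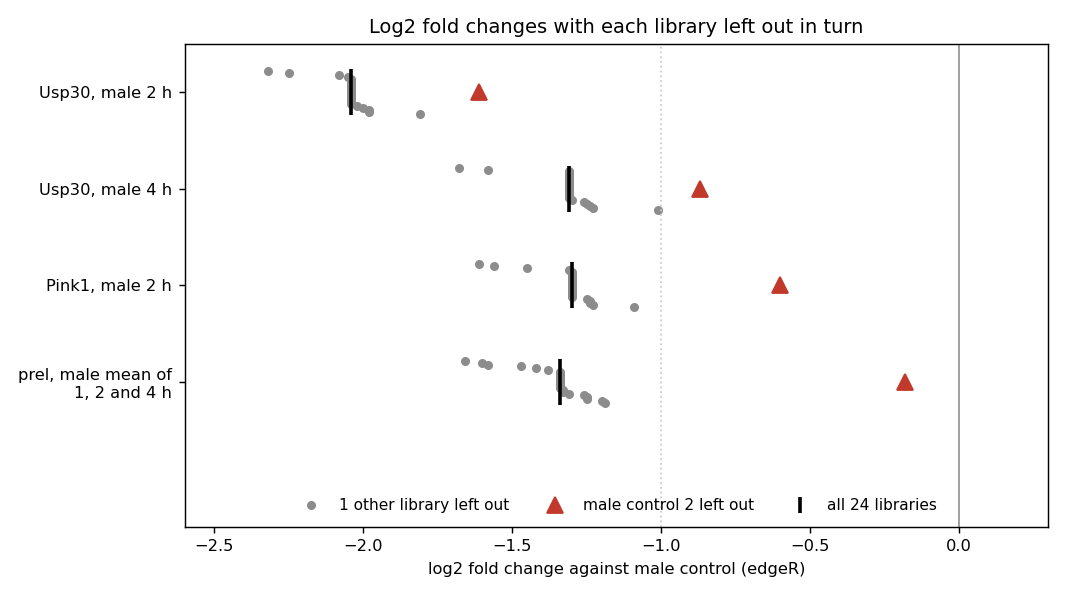
Log2 FC against male control (horizontal axis) of 4 calls in male brains (rows): with all 24 libraries (black bars), with male control 2 left out (red triangles) and with each of the other 23 libraries left out in turn (grey points). Without male control 2 the value for *Usp30* at 2 h is −1.61, that for *Pink1* at 2 h is −0.60 and that for *prel* is −0.18.

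*Pink1*, also on the X chromosome, encodes the kinase that starts mitophagy. In males it stood at 42.2, 189.7 and 86.1 CPM in controls, 86.2, 140.2 and 52.4 CPM at 1 h, 62.3, 31.7 and 40.4 CPM at 2 h, and 92.7, 33.4 and 38.3 CPM at 4 h. Male control 2 was the highest of all 24 libraries and male 1 h 2 the next, and the 2 h and control groups overlap through male control 1 and male 2 h 1. The log2 FC at 2 h was −1.30 ± 0.62 (adjusted p = 0.639 by edgeR's quasi-likelihood test), and at 4 h it was −1.09 and not called. The 4 h value was called without male control 1 (−1.33) or male 4 h 1 (−1.61), and the mean of the 3 times, −0.87 and not called, was called on leaving out 1 of male control 1, male 1 h 2 and male 4 h 1 (−1.03 to −1.14). Leaving out male control 2 (−0.60), male 2 h 2 (−1.09) or male 2 h 3 (−1.24) ended the 2 h call. It also ended, at −1.23 to −1.30, without any 1 of female control 1, female 1 h 1, female 1 h 3, female 4 h 1, female 4 h 2, male 1 h 1, male 4 h 2 and male 4 h 3. Its unadjusted p of 0.0459, with all libraries in the quasi-likelihood fit, lies close to the threshold.

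*Pink1* in females was 84.7, 112.3 and 17.2 CPM in controls, 63.9, 35.8 and 62.9 CPM at 1 h, 62.3, 19.5 and 58.4 CPM at 2 h, and 60.8, 92.6 and 50.1 CPM at 4 h. Female controls spanned the whole range of the female libraries, with female control 3 the lowest of all 24, and every injured female lay within that span. The log2 FC in females was −0.41, −0.63 and −0.07 at 1, 2 and 4 h. At the 3′ ends of *Pink1*, 340 of its 3239 exon bases lie opposite exons of *CG44303* in a later genome build than the one the reads were aligned to. *CG44303* had 53 counts in 6 libraries, 16 of them in male control 2 and 17 in male 1 h 2, the libraries where *Pink1* was highest. Another 10 were in female 2 h 1, with *Pink1* at 62.3 CPM, and 8 in male control 3. Female control 2, with *Pink1* at 112.3 CPM, had 0. Whether the count used strand is not given in the sources used here, and the part of this overlap in the *Pink1* values was not tested.

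*park*, which lies on chromosome arm 3L and encodes the ubiquitin ligase Parkin, had 7 counts in female control 2 (6.14 CPM) and 0 in the other 23 libraries. It was not tested, and no comparison is drawn from it. A count of 0 over a group of 3 libraries allows a level of 0.930 to 1.49 CPM, if 3 counts over the group are taken as the limit (intervals and limits here cover counting error only). Of the 1687 exon bases of *park*, 1076 lie opposite *CR45951*, its 3′ end included, and *CR45951* had 17 counts in 8 libraries. Whether this overlap took reads from *park* was not tested, and 0 counts do not show that the transcript is absent.

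*vimar*, on chromosome arm 2R, encodes an armadillo repeat protein that in flies acts on mitochondrial fission together with Miro. From these same libraries the paper reported *vimar* as significantly lower after injury in both sexes. Its values here are therefore not independent evidence of its direction. In females its counts were 5, 13 and 5 in controls, 3, 0 and 0 at 1 h, 0, 0 and 0 at 2 h, and 3, 5 and 1 at 4 h. As CPM, the female controls had 10.3, 11.4 and 6.61, and all 9 injured females lay below the lowest of them, with 5.33 CPM as the highest value. At 2 h the pooled ratio of *vimar* to control had an upper 95% counting limit of 0.164. At 1 h its pooled ratio to control was 0.150 (95% counting interval 0.0288 to 0.495). At 4 h the ratio was 0.409 (0.167 to 0.918).

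Over the 9 injured females *vimar* had 12 counts, against 23 in the 3 female controls, a ratio of 0.180 after scaling for depth (95% interval 0.0818 to 0.378). By edgeR's quasi-likelihood test the mean of the 3 times had a log2 FC of −3.19 ± 1.13 (adjusted p = 1.0), which includes fitted values for groups at 0. It was called at 2 h (unadjusted p = 0.00617) and for the mean of the 3 times (unadjusted p = 0.00928). Both calls were made under every alternative that tested *vimar*, each library left out in turn included. With the stricter filter of filterByExpr *vimar* was not tested, and its call at 1 h was made by limma voom and without female 1 h 1.

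In males *vimar* had 0, 22 and 11 counts in controls, 4, 14 and 1 at 1 h, 2, 0 and 0 at 2 h, and 0, 0 and 5 at 4 h. The groups overlap: male control 1, where 3 counts make 21.1 CPM, had none, and male control 2 held 22 of the 33 control counts. Pooled, the ratio to control at 1 h was 0.417 (95% interval 0.224 to 0.754). It was 0.0602 (0.00700 to 0.236) in males at 2 h. By 4 h the value was 0.176 (0.0536 to 0.453). None of these was called in males by the quasi-likelihood test, whereas the paper reported a significant decrease in males too. The comparisons deposited by the authors hold likelihood ratios, so the tests differ. At 2 h *vimar* was called in males by DESeq2 and the likelihood ratio test, and also without male control 1 or without male 2 h 1. At 4 h it was called without male 4 h 3. For the mean of the 3 times in males it was called by the likelihood ratio test, and also on leaving out 1 of male control 1, male 2 h 1 and male 4 h 3. Levels of *vimar* in males and females over the 4 conditions were not called either, except without female 1 h 1. The changes in males and females were not shown to differ at any time, with unadjusted p of 0.536, 0.181 and 0.609 at 1, 2 and 4 h by edgeR's quasi-likelihood test. *vimar* shares 301 of its 3470 exon bases with *CG30156* on the same strand, away from its 3′ end. *CG30156* had 32 counts in male 1 h 1, 35 in male 2 h 2 and 13 in female 2 h 1, and at most 5 elsewhere.

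*Miro*, on chromosome arm 3R, encodes the outer membrane GTPase that ties mitochondria to motors. In males it had 14.08, 29.1 and 23.1 CPM in controls, 19.7, 16.9 and 0 CPM at 1 h, 15.6, 17.4 and 13.5 CPM at 2 h, and 5.45, 17.3 and 39.3 CPM at 4 h. In females it had 6.20, 14.04 and 3.97 CPM in controls, 7.10, 15.5 and 8.38 CPM at 1 h, 12.3, 7.43 and 5.08 CPM at 2 h, and 8.68, 23.4 and 6.59 CPM at 4 h. No injured group separated from its control, with log2 FC of −0.80, −0.56 and −0.06 in males and 0.34, 0.04 and 0.65 in females at 1, 2 and 4 h, none called. The male controls lay above the female controls, narrowly at the nearest pair. Over the 4 conditions the male level was higher by 0.84 ± 0.44 on the log2 scale (unadjusted p = 0.0636, adjusted p = 1.0 by edgeR's quasi-likelihood test), which was not called. It was called, at 1.08, when the 3 shallowest libraries were left out together, and at 1.02 without female control 2 or without female 4 h 2. The value of 0 in male 1 h 3 comes from a library where 3 counts make 9.24 CPM.

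*milt*, on chromosome arm 2L, encodes Milton, the adaptor between Miro and kinesin. In females it had 97.1, 79.0 and 63.5 CPM in controls, 101.2, 68.6 and 79.6 CPM at 1 h, 85.0, 53.9 and 124.3 CPM at 2 h, and 112.9, 135.1 and 100.1 CPM at 4 h. All 3 females at 4 h lay above the highest control with a log2 FC of 0.54 that was not called. In males it had 56.3, 58.9 and 85.0 CPM in controls, 53.4, 45.3 and 70.9 CPM at 1 h, 115.9, 42.3 and 94.2 CPM at 2 h, and 120.0, 64.3 and 102.1 CPM at 4 h. The male groups overlap at every time, and the log2 FC at 4 h was 0.48.

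*Marf* encodes the fly mitofusin and lies on the X chromosome. Males had 49.3, 50.9 and 35.7 CPM in controls, 23.4, 0 and 30.8 CPM at 1 h, 50.1, 19.6 and 35.9 CPM at 2 h, and 43.6, 35.9 and 25.5 CPM at 4 h. At 1 h all 3 males lay below the lowest control, and the log2 FC of −1.43 was not called (unadjusted p = 0.121, adjusted p = 1.0 by edgeR's quasi-likelihood test). The 0 is that of male 1 h 2, the deepest library, where 3 counts make 1.64 CPM. In females *Marf* had 51.7, 23.7 and 72.7 CPM in controls, 42.6, 38.7 and 33.5 CPM at 1 h, 3.78, 52.9 and 25.4 CPM at 2 h, and 39.9, 29.8 and 26.3 CPM at 4 h, with the injured groups overlapping control throughout. The log2 FC in females was −0.36, −0.84 and −0.62, and in males at 2 and 4 h −0.37 and −0.39, none called. At its 3′ end *Marf* lies opposite *CR44816* over 347 of its 3617 exon bases, and *CR44816* was counted only in male control 2 (15 counts) and female 2 h 1 (3 counts).

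*Opa1*, on chromosome arm 2R, encodes the inner membrane fusion dynamin. Males had 56.3, 99.3 and 95.5 CPM in controls, 81.5, 119.0 and 129.4 CPM at 1 h, 133.2, 132.2 and 145.8 CPM at 2 h, and 81.8, 120.0 and 71.7 CPM at 4 h. All 3 males at 2 h lay above the highest control, with a log2 FC of 0.67 that was not called (unadjusted p = 0.0775, adjusted p = 0.645 by edgeR's quasi-likelihood test). Females had 111.6, 100.02 and 80.7 CPM in controls, 111.8, 137.3 and 132.0 CPM at 1 h, 81.2, 92.9 and 167.5 CPM at 2 h, and 97.2, 103.2 and 129.1 CPM at 4 h. Females at 1 h lay above their controls, narrowly at the nearest pair, and the log2 FC there was 0.39. In males at 4 h the log2 FC of 0.09 turned negative under 5 of 34 alternatives (RLE factors, DESeq2, voom, and without male control 1 or male 4 h 2, the lowest at −0.12). In females at 2 h the value of 0.21 was −0.16 without female 2 h 3. Its biological coefficient of variation in edgeR's fit, the spread within groups beyond counting error, was 0.326, the lowest of the 9 tested members. That of *vimar* was the highest at 0.948, but edgeR draws such values toward those of genes of like abundance. The observed spread of *vimar* over counting error was low for its abundance, at percentile 4.63 of 1274 genes with like mean counts. That of *Opa1* was at percentile 6.07 of 956 genes.

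*Drp1*, on chromosome arm 2L, encodes the fission dynamin. In males it had 21.1, 98.5 and 36.7 CPM in controls, 31.8, 49.1 and 49.3 CPM at 1 h, 41.5, 60.4 and 35.9 CPM at 2 h, and 21.8, 61.9 and 28.5 CPM at 4 h. In females it had 26.9, 23.7 and 42.3 CPM in controls, 55.0, 40.6 and 16.8 CPM at 1 h, 33.0, 55.7 and 20.3 CPM at 2 h, and 31.3, 28.7 and 29.0 CPM at 4 h. Every injured group overlapped its control in both sexes, and the log2 FC ran from −0.51 in males at 4 h to 0.28 in females at 1 h. The highest value was that of male control 2, and without that library, alone or together with male 1 h 2, the log2 FC in males was positive at each time, by 0.59 at most. At its 3′ ends *Drp1* lies opposite *Arpc5* over 143 of its 2868 exon bases, and *Arpc5* was counted in all 24 libraries.

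*prel*, on chromosome arm 2R, encodes a protein of the PRELI family, which in yeast and mammals carries phospholipids between the mitochondrial membranes. In males it had 7.04, 82.3 and 25.2 CPM in controls, 15.9, 17.5 and 6.16 CPM at 1 h, 12.1, 28.7 and 17.9 CPM at 2 h, and 5.45, 11.1 and 25.5 CPM at 4 h. The controls held both the highest value of all 24 libraries, male control 2, and 1 of the lowest, and every injured male lay within their range apart from 2 just below it. For the mean of the 3 times the log2 FC was −1.34 ± 0.59 (adjusted p = 0.653 by edgeR's quasi-likelihood test). It was −0.18 and not called without male control 2. Leaving out male 1 h 3 (−1.19), male 2 h 1 (−1.25), male 4 h 1 (−1.25) or male 4 h 2 (−1.20) ended the call too, and so did the replicate number as a block (−1.12). The separate times had log2 FC of −1.56, −1.04 and −1.42 and were not called. At 1 h *prel* was called without male control 1 (−1.91) or male control 3 (−1.82), and by the likelihood ratio test, and at 4 h it was called without male control 1 (−1.71) or male 4 h 3 (−2.16). Females had 12.4, 43.9 and 19.8 CPM in controls, 12.4, 12.6 and 8.38 CPM at 1 h, 32.1, 20.4 and 7.61 CPM at 2 h, and 10.4, 28.7 and 7.90 CPM at 4 h, and the groups overlap at each time. Their log2 FC was −1.19, −0.32 and −0.69, and none was called.

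Groups whose libraries did not overlap were counted too, called or not. Of the 9 tested members, 1 lay apart from control in males at 1 h (*Marf*), where 3.85% of all tested genes did. At 2 h 2 members lay apart in males (*Opa1* and *Usp30*), beside 9.74% of all genes, and at 4 h 1 (*Usp30*), beside 6.79%. In females 3 members lay apart at 1 h (*Opa1*, *vimar* and *Usp30*), 2 at 2 h (*vimar* and *Usp30*) and 2 at 4 h (*milt* and *vimar*), beside 10.4%, 5.33% and 6.10% of all genes. Between male and female controls 1 member lay apart (*Miro*), beside 5.59% of all genes.

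Between the sexes no member was called. In controls 0 of 9 members were called between males and females, where 3.03% of all tested genes were, and 0 were called for the mean of the 4 conditions, where 3.03% were. For the difference between the male and the female change, 0 of 9 members were called at 1, 2 and 4 h, where 3.04%, 3.65% and 3.05% of all genes were. No member had an unadjusted p under 0.05 in any of these 5 comparisons by edgeR's quasi-likelihood test, and limma voom called *Miro* between the controls. The log2 difference of male from female controls ran from −0.23 for *milt* to 1.45 for *Miro*, with a median of 0.62 over the 9 members, beside −0.01 over all genes. Without male control 2 the difference turned negative for *Drp1*, *Pink1*, *vimar* and *prel*.

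**Figure D4:**
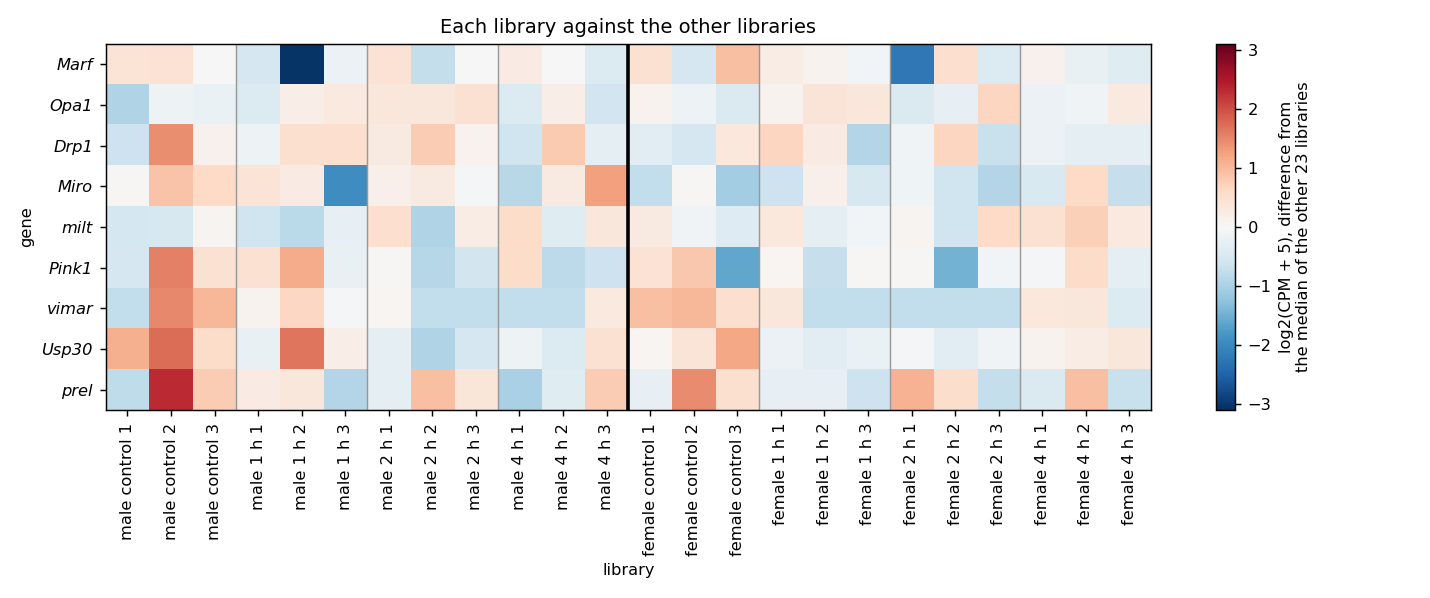
Difference of each library (columns, males left of females) from the median of the other 23 for the 9 tested genes (rows), in log2(CPM + 5), red above and blue below. Male control 2 is red for 7 genes by 0.46 to 2.31, and male 1 h 2 is at −3.03 for *Marf* and 1.66 for *Usp30*.

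Male control 2 set the upper end of many of these ranges. On the log2(CPM + 5) scale it lay 2.31 above the median of the other 23 libraries for *prel*, 1.73 for *Usp30*, 1.57 for *Pink1*, 1.49 for *vimar*, 1.44 for *Drp1*, 0.88 for *Miro* and 0.46 for *Marf*, but at −0.16 for *Opa1* and −0.49 for *milt*. Male 1 h 2 lay 1.66 above for *Usp30* and 1.14 for *Pink1*. Whether a lower level comes from fewer cells of a type or less RNA per cell cannot be told apart in these libraries. Muscle, photoreceptor and fat body markers had median sums of 3753, 7980 and 7190 CPM over all libraries, beside 3201 CPM for neuron markers. The part of RNA from tissue outside the brain in the levels of these genes was not tested.

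The members did not vary together as a group. Over the 24 libraries the median Pearson r of the 36 pairs of tested members was 0.0917, and 0.00483 over the 22 libraries without male control 2 and male 1 h 2 (log2(CPM + 5), as a description, since the points share libraries, groups and depth). *Miro* and *prel* had the highest r, 0.618 (Spearman's rho 0.586) over 24 libraries and 0.565 over 22. *vimar* and *Usp30* had an r of 0.613 over 24 libraries and 0.453 over 22. *Pink1* and *Usp30* had an r of 0.401 over 24 libraries and −0.01 over 22, so that likeness rested on the pair of libraries left out. *Opa1* and *Usp30* ran against each other, at −0.407 over 24 libraries and −0.608 over 22.

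Other genes of the same processes were taken from a list of 51 names (fission and fusion, mitophagy and quality control, transport, and intermembrane lipid transfer), of which 47 were in the table and 42 were tested. In males 1 was called higher and 1 lower at 1 h, 1 higher and 6 lower at 2 h, and 1 higher and 2 lower at 4 h, where 4.64%, 7.26% and 3.92% of all tested genes were called. Without male control 2, 0 were called higher and 1 lower at each of the 3 times. In females 1 was called lower at 1 h and 0 at 2 or 4 h by edgeR's quasi-likelihood test, where 1.44%, 2.16% and 1.42% of all genes were called. Without female control 2, 0 were called at 1 h, and 1 was called higher at 2 h and 1 at 4 h. The median log2 FC of the list was −0.14, −0.38 and −0.34 in males at 1, 2 and 4 h, beside 0.02, −0.02 and −0.05 over all genes. In females it was −0.31, −0.02 and −0.02, beside −0.06, −0.02 and 0.02. Its fission and fusion genes, 9 of them tested, held no call in any comparison of injury with control.

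*Klc*, the kinesin light chain gene, was the transport gene of the list called lower in males at 1 and 4 h. It had 0 counts in the 3 males at 1 h, 1 in those at 2 h and 0 in those at 4 h, against 0, 17 and 16 counts in male controls. Its ratio to control had an upper 95% counting limit of 0.0856 at 1 h and 0.137 at 4 h. At 2 h the ratio was 0.0301 (95% counting interval 0.000740 to 0.180). The counts of the controls are those of male control 2 and male control 3, and male control 1, with 0, is the shallowest library. Without male control 2 *Klc* was still called at 1 and 4 h, and the 4 h call was lost without male 4 h 3. *robl*, a dynein light chain gene, averaged 53.8 ± 7.88 CPM in males at 2 h and 124 ± 56.7 CPM in male controls, and was called lower there. Its log2 FC was −1.24, and −0.82 and not called without male control 2, while the call also ended without male 2 h 1 or male 2 h 2.

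Among the quality control genes, *Tom20*, a receptor of the outer membrane import pore, had 10, 0 and 1 counts in males at 2 h, against 1, 157 and 46 in male controls. *Usp8*, a deubiquitinase that in human cells acts on Parkin, had 6, 1 and 4 counts, against 1, 143 and 16. In both, most control counts are those of male control 2. Without that library neither was called: the log2 FC of *Tom20* was −2.38, against −3.40 with it, and that of *Usp8* was −1.09, against −2.98. *Hsp60A*, a mitochondrial chaperone, was called lower at 4 h, with 24, 49 and 75 counts against 18, 453 and 68, again mostly in male control 2. Its log2 FC was −1.15, and −0.16 and not called without that library, and leaving out female 4 h 2, male 1 h 3, male 4 h 2 or male 4 h 3 ended the call too. The other genes called lower at 2 h, named here after their values were seen, were *Hsp60A* (−1.13, and −0.13 without male control 2), the chaperone gene *Hsc70-5* (−1.39, and −0.36) and *CLS* (−3.59, and −3.93), whose calls ended on leaving out 1 of 6, 10 and 3 single libraries. *CG32113* (*Vps13D*), a lipid transfer protein gene needed for mitochondrial clearance in fly cells, was called higher in males at each time. It had 11, 7 and 7 counts over the groups at 1, 2 and 4 h, against 0 in male controls. The lower 95% counting limits of its ratio to control were 1.82, 1.43 and 1.67. None of these *CG32113* calls was made without male control 2, nor without male control 3, and 4 or 5 single libraries ended each. *CG32113* was called lower in male than in female controls, with 0 counts against 2, 1 and 18, and *Lon*, the matrix protease gene, was called higher there, with 3, 51 and 25 counts against 7, 13 and 3. The first of these calls was lost without female control 3, and that of *Lon* without male control 2 (1.29), female control 2 (1.76) or female control 3. The male change was called above the female change for *CG32113* at 1 and 2 h. It was called below for *Lon* at 1 h, *Tom20* at 2 h and *Usp14* at 4 h. Over all tested genes 3.04%, 3.65% and 3.05% were called in these comparisons at 1, 2 and 4 h. Without male control 2 the list held 1 higher and 0 lower calls at 1 h and at 2 h, and 0 at 4 h.

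*CLS*, the cardiolipin synthase gene, was the gene of the list called in females at 1 h. It had 1, 1 and 0 counts at 1 h, against 2, 34 and 1 in female controls, so that 34 of the 37 control counts are those of female control 2, where the antenna and fat body markers were high. The log2 FC was −3.47, and −1.34 and not called without female control 2. The call also ended without female 1 h 2 or female 1 h 3.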

How the data were processed

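Single *tau*-KO brains were extracted with the Direct-zol kit and made into QuantSeq 3′ libraries. The counts deposited by the authors are reads per gene: libraries were sorted with CASAVA 1.8.2 and reads aligned to dm3 with STAR 2.4 and counted with HTSeq. Annotation, strand setting and filters are not given in the sources used here. The authors also deposited their edgeR 3.22.3 comparisons (log2 fold changes, average CPM, likelihood ratios, p and FDR), which were not used. All 24 count columns were matched to samples by title and 0 were left unmatched. Of each library's reads, 12.2 to 32.2% aligned to several places, 6.06 to 8.71% were ambiguous and 1.74 to 7.19% lay in no feature, and these stayed out of library sizes.

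The counts were analysed in R 4.3.3 with edgeR 4.0.16 (TMM factors, robust quasi-likelihood F-test, 8 groups in 1 fit, 5 or more counts in 3 or more libraries) and Benjamini-Hochberg adjustment over 7865 genes. The SE is |log2 FC| divided by the square root of F. The study states both an FDR rule and a |log2 FC| over 1 at an unadjusted p below 0.05, and calls follow the second. Nothing states more of the replicates than that each is 1 brain. All 10 members were named, with their values. From the list of other genes at most 4 called genes per comparison were to be named, by lowest p. In males at 2 h the remaining called genes of the list were named as well, after their values were seen. Members and lists were chosen with earlier results of these data known. Alternatives used DESeq2 1.42.0, limma 3.58.1, edgeR's other tests, other filters and factors, a replicate block, |log2 FC| over 2, and libraries left out. The effect of leaving out libraries on the list of other genes, and the signs of uncalled values, were added after seeing the data. Scripts were tested on simulated data with a smaller spread than the real data and with changes set only in well counted genes. That test does not measure how well changes are found in these data. Descriptions used Python 3.11.15 with numpy 2.4.6, pandas 2.3.3 and scipy 1.17.1, and plots matplotlib 3.10.9. Gene overlaps come from a later build (BDGP6), from which no coordinates are given.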

Additional observations from a re-analysis of the deposited data

How the results depend on the processing

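No called member changed sign in the comparison that called it, and no member reached an adjusted p under 0.05, under any alternative run. Values that were not called did change sign: 2 to 5 of the 9 members in each of the 6 comparisons of injury with control had the other sign under at least 1 alternative. The lowest was 0.192 (*Usp30* in males at 2 h, DESeq2). By limma voom with quality weights 1 member was called in females at 1 h, 1 in males at 2 h, 0 in males at 4 h, 1 for the mean of the times in males and 1 between controls. With filterByExpr 0 were called in females at 2 h and 0 for their mean, since *vimar* was not tested. The likelihood ratio test called 1 in males at 1 h. The exact test on 6 libraries called 1 in males at 2 h and 0 at 4 h. With no filter 0 were called in males at 4 h, 1 for the mean in males and 2 for the mean in females, *park* among them. At |log2 FC| over 2, 1 was called in males at 2 h, 0 at 4 h and 0 for the mean. Without male control 2 and male 1 h 2 together, 1 was called in males at 2 h, 0 at 4 h and 1 for the mean. Without the 3 shallowest libraries 1 was called for males against females over the 4 conditions. RLE factors moved no count.

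With each library left out in turn the members called ranged from 0 to 1 in females at 1 h, 0 to 1 in males at 1 h, 1 to 3 at 2 h, 0 to 3 at 4 h, 0 to 4 for the mean in males and 0 to 1 for males against females. Over all tested genes, the number called in males was 571 at 2 h, and 151 without male control 2 to 1124 without the 3 shallowest libraries. It was 365 at 1 h (107 by the exact test to 665 without male 1 h 3), 308 at 4 h (115 without male control 2 to 560 without male control 1) and 516 for the mean (119 without male control 2 to 854 with no filter). In females it was 113 at 1 h (41 without female control 2 to 339 by the exact test), 170 at 2 h (73 with filterByExpr to 261 without female 2 h 3), 112 at 4 h (50 with filterByExpr to 273 by voom) and 179 for the mean (65 with filterByExpr to 368 with no filter). The causes were not tested.

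The labels give no meaning to the replicate numbers. Over 84 pairs of the same number (3638 genes) the deviations from group means correlated at 0.193 on average, against −0.0978 for other pairs, and 16 of 24 libraries correlated best with their own number, a hint of pairing in the data. Only 57 of the 84 pairs exceeded 0.1 (range −0.538 to 0.706), so the numbers were not taken as pairs. The replicate block ended the call of *prel* for the mean in males (−1.12), which left 1 called member instead of 2. It changed no other count of members. The exact test was not run for means and sex differences, since it takes 1 pair of groups. Counting error is large for genes with few counts, such as *vimar*, *park*, *Klc*, *CG32113* and *CLS*.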
